A study of Mus musculus with 6 samples.

Results

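The genes described here are 9 writers, readers and erasers of N6-methyladenosine (m6A), chosen by name among the 15639 rows of the gene tables, and each stood on 1 row in every table. They comprise 3 writers (Mettl3, Mettl14 and Wtap), 4 readers (Ythdc1, Ythdf1, Ythdf2 and Ythdf3) and 2 erasers (Fto and Alkbh5). RNA was sequenced from the hippocampus of mice aged 6 months, in 3 libraries labelled APP/PS1 and 3 labelled wild type (WT). The APP/PS1 mice are described as expressing APP695swe and PS1-dE9, mutant forms of the amyloid precursor protein and of presenilin 1 that are used to model amyloid deposition. The labels name no promoter for the transgenes, no mouse line and no sex. Nothing says that replicates come from separate animals, and a p-value here reflects the spread of the libraries alone, part of which may be technical.

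Levels are FPKM, fragments scaled to transcript length and to library size, which can be compared between genes because they are per length. The lowest total of FPKM in a library was 182355 and the highest 185217, with the read depth unknown. App, the amyloid precursor protein gene, had 153.1, 71.01 and 166.2 FPKM in APP/PS1 replicates 1 to 3, against 69.81, 68.49 and 145.6 FPKM in WT replicates 1 to 3. Prnp, the prion protein gene, divided the libraries in the same way, with 471.6, 198.6 and 463.8 FPKM in APP/PS1 against 188.1, 181.5 and 457.2 FPKM in WT. APP/PS1 replicate 2 and WT replicate 3 therefore went against their labels by both genes. Whether these libraries were exchanged was not tested, and every library is called here by its label. Each member is also given for the 4 libraries without them, and so are the other pathway genes whose sign turned or whose log2 fold change moved most. The mitochondrially encoded share of FPKM ran from 9.7% to 11.33% in APP/PS1 and from 8.87% to 9.31% in WT. In tissue RNA, fewer cells of a type and less RNA per cell cannot be told apart.

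m6A is the most common internal modification of mammalian messenger RNA and is abundant in brain. METTL3 transfers the methyl group, METTL14 holds the RNA beside it, and WTAP brings the pair to nuclear speckles. Proteins with a YTH domain then bind the methylated base, YTHDC1 in the nucleus and the YTHDF paralogs in the cytoplasm, while FTO and ALKBH5 can take the methyl group off again. In mouse hippocampus, loss of Mettl3 or of Ythdf1 is known to impair memory.

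The members covered a wide range of levels, and their order was nearly the same in every library. Ythdf1 averaged 16.7 FPKM over the 6 libraries (range 15.7 to 18.4) and Alkbh5 16.5 FPKM (15.2 to 17.6). These ranges overlapped, and Ythdf1 exceeded Alkbh5 in 3 of 6 libraries. Ythdf3 followed at 12.9 FPKM (12.3 to 14.3), then Fto at 11.4 (11.1 to 11.8), Ythdf2 at 8.57 (7.39 to 10.3), Wtap at 6.74 (5.66 to 7.15) and Ythdc1 at 4.59 (4.22 to 5.16). Each of these neighbours stood apart from the next without overlap of their ranges. The core methyltransferase pair was lowest, Mettl3 at 2.68 FPKM (2.34 to 2.98) and Mettl14 at 2.54 FPKM (2.23 to 2.73), and their ranges overlapped. Among the 13700 genes tested, 83.1% had a lower mean level than Ythdf1, 26.3% than Mettl3 and 24.8% than Mettl14. Summed by role, readers reached 41.6 to 43.3 FPKM in APP/PS1 and 39.6 to 48.2 FPKM in WT, erasers 26.6 to 29.3 and 27.2 to 28.5 FPKM, and writers 10.9 to 12.5 and 11.8 to 12.8 FPKM, with overlap between the labels in each role.

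**Figure D1:**
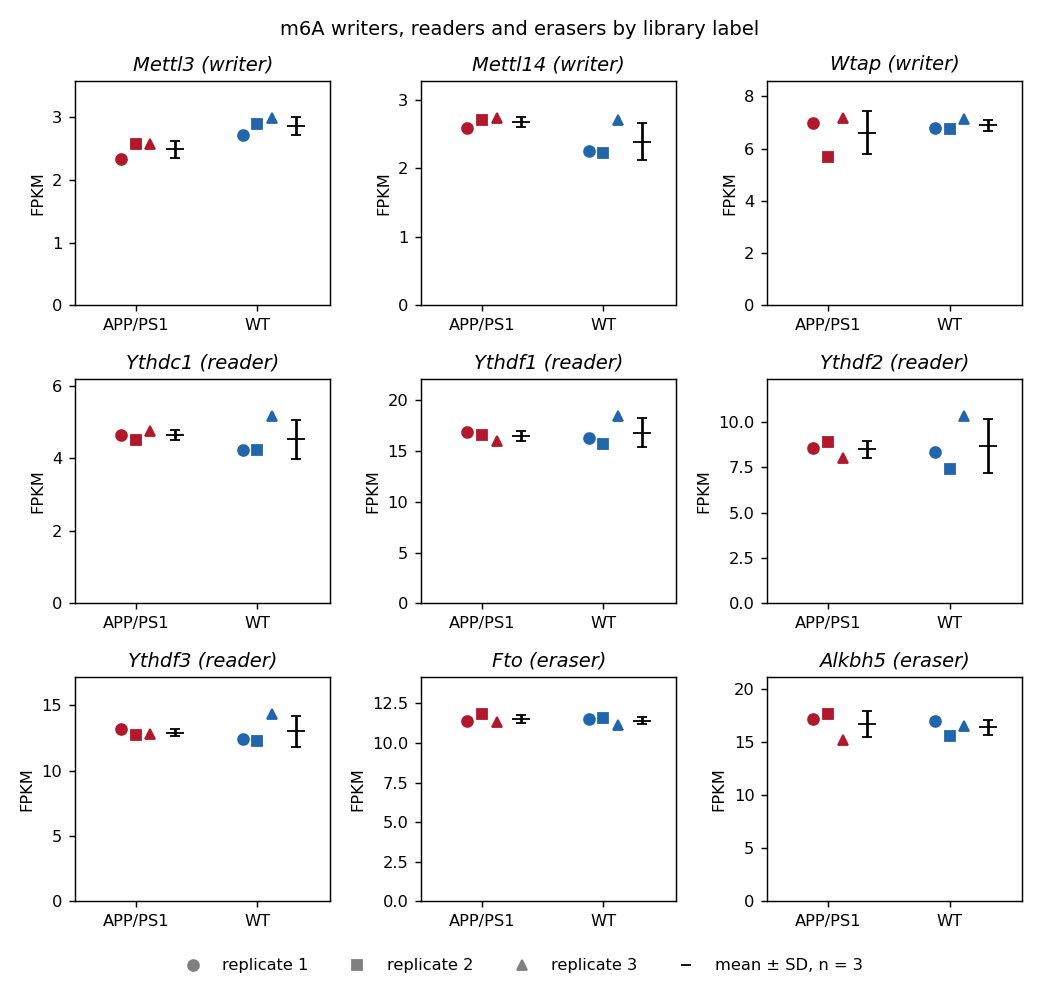
FPKM of the 9 members (vertical axes from 0) in the libraries labelled APP/PS1 (red) and WT (blue); symbols mark the replicate number and the bar gives the mean with its SD (n = 3). Mettl3 is the panel in which the labels do not overlap, with 2.34 to 2.57 FPKM in APP/PS1 and 2.71 to 2.98 FPKM in WT.

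No member passed the test between labels. limma on log2(FPKM + 1) with Benjamini-Hochberg adjustment over all genes tested called 0 of the 9 members higher and 0 lower at an adjusted p of 0.05, where the background over all genes was 0.0073% higher (1 gene) and 0.0146% lower (2 genes). At an unadjusted p of 0.05 the members again gave 0 in either direction in this fit, against a background of 2.85% higher and 3.83% lower. Of the members, 4 log2 fold changes were positive and 5 negative (median -0.0069), and over all genes tested 49.6% were positive (median -0.00089). The signs of Mettl3 and Mettl14 held under every alternative run, while those of the other 7 members turned under at least 1 of them.

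Mettl3, the catalytic subunit of the methyltransferase, was the member with the smallest p. It had 2.34, 2.57 and 2.57 FPKM in the APP/PS1 libraries, against 2.71, 2.89 and 2.98 FPKM in the WT libraries. All 3 APP/PS1 values lay below all 3 WT values, which held for 1 of the 9 members, where 6.51% of all genes tested were lower without overlap and 5.38% higher. The means were 2.49 ± 0.133 FPKM in APP/PS1 and 2.86 ± 0.136 FPKM in WT (SD, n = 3 each), a difference of -12.9% of the WT mean. The log2 fold change on the log2(FPKM + 1) scale was -0.15 (95% interval -0.31 to 0.02), with an adjusted p = 0.796 by limma and an unadjusted p = 0.0793 by limma, so the difference did not pass. That scale understates changes of a gene this low, and with a pseudocount of 0.1 in place of 1 the log2 fold change was -0.19. Mettl3 had a log2 fold change of -0.14 in the 4 libraries without APP/PS1 replicate 2 and WT replicate 3.

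In the RefSeq annotation, Mettl3 overlaps Tox4, which encodes an HMG-box protein, and no source used here says whether the authors counted by strand. Reads of the shared stretch may therefore have gone to either gene. Tox4 had 7.62, 7.85 and 7.18 FPKM in APP/PS1 and 7.85, 8.31 and 9.28 FPKM in WT. The labels met at 7.85 FPKM, and the log2 fold change of Tox4 was -0.15 (adjusted p = 0.8 by limma), the same as that of Mettl3 to 2 decimals. What part of the Mettl3 values comes from the overlap was not tested.

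Mettl14, the RNA-binding partner that stabilises METTL3, had 2.59, 2.71 and 2.73 FPKM in APP/PS1 and 2.25, 2.23 and 2.7 FPKM in WT. WT replicate 3 lay among the APP/PS1 libraries, while WT replicates 1 and 2 lay below them. The means were 2.68 ± 0.0742 FPKM in APP/PS1 and 2.39 ± 0.269 FPKM in WT (SD, n = 3 each), with a log2 fold change of 0.12 (95% interval -0.07 to 0.31, adjusted p = 0.864 by limma). In the 4 libraries the log2 fold change was 0.18, and it was also 0.18 without WT replicate 3 alone. Neither value passed (adjusted p = 0.617 and adjusted p = 0.546 by limma).

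The ratio of the core subunits to each other does not depend on how a library was scaled. Mettl3 over Mettl14 was 0.901, 0.947 and 0.94 in APP/PS1, against 1.21, 1.3 and 1.1 in WT. In every APP/PS1 library Mettl14 was the higher of the pair, and in every WT library Mettl3 was. This separation, and that of Mettl3 itself, rests on the labels as given. With the labels of APP/PS1 replicate 2 and WT replicate 3 exchanged, as App and Prnp lie, the values of both would overlap. The same exchange would set apart members that overlap by the labels as given. Wtap, Ythdc1 and Ythdf3 would then be higher in APP/PS1 without overlap, and Fto lower. How many of all genes tested would separate in this way was not computed. By the labels as given, Mettl3 over Mettl14 averaged 0.929 ± 0.0248 in APP/PS1 and 1.2 ± 0.0988 in WT (SD, n = 3 each), a difference of -0.37 in the log2 ratio. An exact two-sided permutation test gave p = 0.1, the smallest that 3 against 3 libraries allow, and p = 0.4 after Benjamini-Hochberg adjustment over the 4 ratios compared, so it did not pass either. The difference was -0.44 in the 4 libraries and ran from -0.43 to -0.31 when single libraries were left out. Mettl3 relative to Ythdc1, Ythdf1, Ythdf3 and Fto was also lower in APP/PS1 without overlap, and Mettl14 relative to all 4 readers was higher without overlap. These 9 ratios, out of 36 possible pairs looked at after the values were seen, all involve Mettl3 or Mettl14 and were not tested. They reuse the same Mettl3 and Mettl14 values and are not separate results. For Mettl3 to Ythdf1 the labels nearly met, with the highest APP/PS1 and the lowest WT ratio both at 0.161. How many ratios between any 2 genes tested lie apart was not computed, so the count of 9 has no background.

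**Figure D2:**
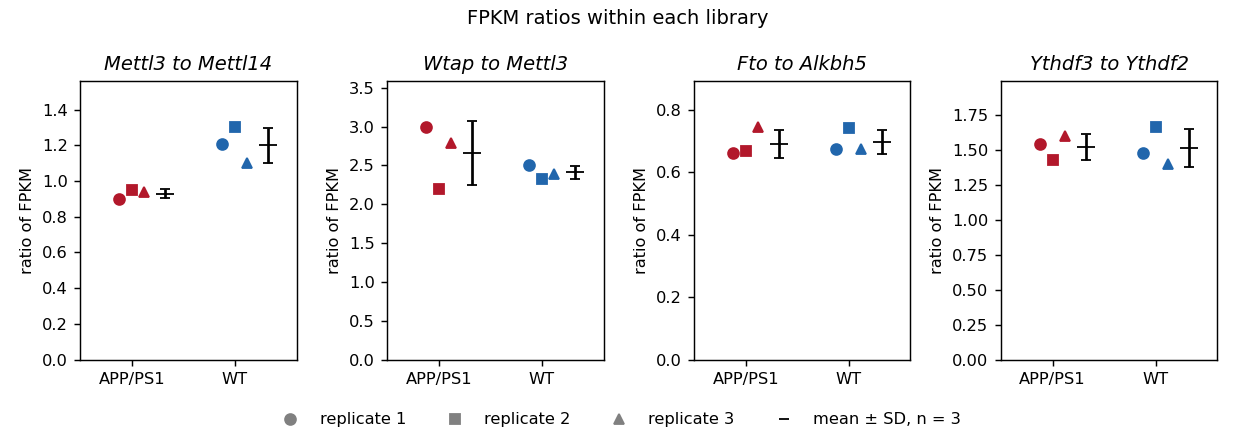
Ratios of FPKM within each library (vertical axes from 0), APP/PS1 in red and WT in blue, with the mean and SD (n = 3). For Mettl3 to Mettl14 the APP/PS1 libraries lie between 0.901 and 0.947 and the WT libraries between 1.1 and 1.3, and the other ratios overlap.

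Wtap, the regulatory subunit, had 6.99, 5.66 and 7.15 FPKM in APP/PS1 and 6.8, 6.74 and 7.12 FPKM in WT. APP/PS1 replicate 2 was the lowest library and the other APP/PS1 values lay within or just past the WT range. Its log2 fold change was -0.06 (95% interval -0.26 to 0.15, adjusted p = 0.942 by limma), and in the 4 libraries, without that low value, 0.06. The ratio of Wtap to Mettl3 was 2.99, 2.2 and 2.79 in APP/PS1 and 2.51, 2.33 and 2.39 in WT (difference in log2 ratio 0.13, exact two-sided permutation p = 0.4). It overlapped between labels through APP/PS1 replicate 2, and without that library the difference was 0.26.

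The 250 bases before the annotated start are shown for Mettl3, the member whose libraries separated by label, and for its complex partner Wtap as a contrast. They are from RefSeq, build GRCm38.p6, whereas the submitters' processing notes list mm9. Both are written 5′ to 3′ on the strand of the gene, with capitals on matches to short motifs on either strand. These motifs were GGGCGG (the GC box), CCAAT (named by its letters), TGACG (the core of the cyclic AMP response element) and CCGGAAG (a motif of ETS factors).
Mettl3, chr14:52305125-52305374, minus strand: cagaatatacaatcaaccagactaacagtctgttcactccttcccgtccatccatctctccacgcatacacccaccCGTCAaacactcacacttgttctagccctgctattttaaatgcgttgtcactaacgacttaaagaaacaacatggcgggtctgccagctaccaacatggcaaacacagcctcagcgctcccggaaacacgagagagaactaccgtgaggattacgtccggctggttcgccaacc
Wtap, chr17:12992544-12992793, minus strand: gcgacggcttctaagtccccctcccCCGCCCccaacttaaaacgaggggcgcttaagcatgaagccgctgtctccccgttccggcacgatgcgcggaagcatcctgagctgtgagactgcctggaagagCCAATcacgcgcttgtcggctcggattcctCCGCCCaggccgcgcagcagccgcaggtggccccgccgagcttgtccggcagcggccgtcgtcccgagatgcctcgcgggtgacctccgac
The Mettl3 stretch was 50.4% G and C with 13 CpG dinucleotides and held 1 of these motifs, the core TGACG. The first of the Wtap starts listed had 68% G and C, 29 CpG dinucleotides, GC boxes and a CCAAT box. Over 27025 genes with a promoter in the table, 1 start per gene, 32.9% held GGGCGG, 34.5% CCAAT, 17.9% TGACG and 7.05% CCGGAAG within the same length. The medians over these genes were 52.0% G and C and 6 CpG dinucleotides, so Mettl3 lay near the first and above the second. Of the 9 members, 7 had a promoter in the table, and of these 5 held GGGCGG, 3 CCAAT, 3 TGACG and 0 CCGGAAG. Mettl14 and Ythdf3 had no promoter there, and the stretch of Fto held none of these motifs.

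Among the readers, Ythdc1, which acts in the nucleus on splicing and export, had 4.65, 4.5 and 4.77 FPKM in APP/PS1 and 4.22, 4.22 and 5.16 FPKM in WT. The APP/PS1 values fell between the WT values, and the log2 fold change was 0.03 (95% interval -0.16 to 0.23, adjusted p = 0.974 by limma). In the 4 libraries it was 0.13.

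Ythdf1, a cytoplasmic reader linked to translation, had 16.9, 16.6 and 16.0 FPKM in APP/PS1 and 16.3, 15.7 and 18.4 FPKM in WT. Ythdf2, which brings methylated transcripts to the CCR4-NOT deadenylase, had 8.55, 8.9 and 7.99 FPKM in APP/PS1 and 8.35, 7.39 and 10.3 FPKM in WT. Ythdf3, which is known to work with both paralogs, had 13.2, 12.7 and 12.8 FPKM in APP/PS1 and 12.4, 12.3 and 14.3 FPKM in WT. For all 3 paralogs WT replicate 3 was the highest library and WT replicate 2 the lowest, with the APP/PS1 libraries in between. Their log2 fold changes were -0.02 for Ythdf1 (95% interval -0.18 to 0.14), -0.02 for Ythdf2 (-0.27 to 0.24) and -0.01 for Ythdf3 (-0.17 to 0.15). The adjusted p-values by limma were 0.974, 0.988 and 0.991, in that order of paralogs. In the 4 libraries the signs turned, to 0.04 for Ythdf1, 0.07 for Ythdf2 and 0.07 for Ythdf3.

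WT replicate 3 was the highest library for 5 of the 9 members, namely Mettl3 and the 4 readers, and WT replicate 2 the lowest for Mettl14 and the 4 readers. Over all genes tested, WT replicate 3 was the highest library for 22.6% and WT replicate 2 the lowest for 18.2%. By the labels as given, the readers spread more widely in WT than in APP/PS1. Ythdf2 had an SD of 0.461 FPKM in APP/PS1 and 1.47 FPKM in WT, and Ythdc1 of 0.136 and 0.542 FPKM (n = 3 each). For Ythdc1 and Ythdf3, WT replicates 1 and 2 lay close together and WT replicate 3, which goes against its label by App and Prnp, lay above them. The share of all genes tested that spread more widely in WT was not computed.

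The mix of the YTHDF paralogs varied little. Ythdf1 made up 43.4% to 43.8% of their summed FPKM in APP/PS1 and 42.8% to 44.4% in WT. Ythdf3 made up 33.3% to 34.8% in APP/PS1 and 33.3% to 34.7% in WT, and Ythdf2 21.7% to 23.3% and 20.9% to 23.8%. The ratio of Ythdf3 to Ythdf2 averaged 1.52 ± 0.091 in APP/PS1 and 1.51 ± 0.136 in WT (SD, n = 3 each; exact two-sided permutation p = 0.9). The paralogs are similar in sequence, and no source used here says how reads matching more than 1 of them were counted.

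**Figure D3:**
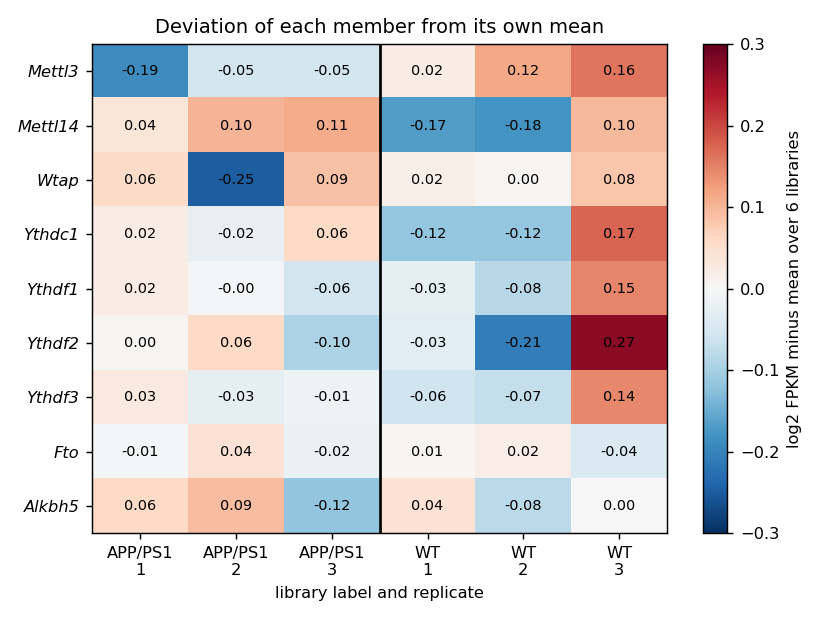
Log2 FPKM of each member (rows) in each library (columns, APP/PS1 left of WT) minus the mean of that member over the 6 libraries, red above and blue below. The 4 readers are all highest in WT replicate 3, Wtap is lowest in APP/PS1 replicate 2, and Fto is nearly flat with 11.1 to 11.8 FPKM.

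Of the erasers, Fto, whose protein also removes the methyl group from the base next to the cap, had 11.4, 11.8 and 11.3 FPKM in APP/PS1 and 11.5, 11.6 and 11.1 FPKM in WT. Its coefficient of variation over the 6 libraries was 1.88%, where the median of all genes tested was 9.03%. Only 0.6% of all genes tested, and 1.0% of the 5079 genes within a factor of 2 of its level, had a lower one. The log2 fold change of Fto was 0.01 (95% interval -0.11 to 0.13, adjusted p = 0.986 by limma), the narrowest interval among the members. In the 4 libraries its log2 fold change was -0.02.

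Alkbh5, a nuclear demethylase, had 17.2, 17.6 and 15.2 FPKM in APP/PS1 and 17.0, 15.6 and 16.5 FPKM in WT. The labels overlapped over most of their range, with APP/PS1 replicates 2 and 3 as the highest and the lowest library. The means were 16.7 ± 1.26 FPKM in APP/PS1 and 16.4 ± 0.708 FPKM in WT (SD, n = 3 each), with a log2 fold change of 0.02 (95% interval -0.14 to 0.18, adjusted p = 0.974 by limma) and of -0.01 in the 4 libraries. Fto over Alkbh5 averaged 0.691 ± 0.0453 in APP/PS1 and 0.696 ± 0.0382 in WT (SD, n = 3 each; exact two-sided permutation p = 0.6).

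The other genes of the pathway were read from a list of 30, of which 27 were tested. Igf2bp1, Igf2bp2 and Igf2bp3 had no row of that name in the gene tables. By limma 0 were called higher and 0 lower after adjustment. Without adjustment, 2 passed 0.05 on the higher side and 0 on the lower side, where the background was 2.85% higher and 3.83% lower. The same counts, 2 and 0, lay apart without overlap, where 5.38% of all genes tested were higher and 6.51% lower, so 2 of 27 stood near that share. Log2 fold changes were positive for 12 and negative for 15 of the 27 (median -0.03).

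Cbll1, which encodes the HAKAI subunit of the writer complex, had 5.2, 3.97 and 5.42 FPKM in APP/PS1 and 3.37, 1.55 and 3.7 FPKM in WT. All APP/PS1 libraries lay above all WT libraries, and WT replicate 2 stood well below the rest. With the labels of APP/PS1 replicate 2 and WT replicate 3 exchanged, the values would overlap. The log2 fold change was 0.64 (95% interval 0.05 to 1.22, adjusted p = 0.726 by limma, unadjusted p = 0.0366 by limma). It was 0.36 without WT replicate 2 and 0.92 in the 4 libraries.

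Ythdc2, a YTH protein with a helicase domain known for its part in meiosis, was the other gene above without overlap. It had 5.78, 5.44 and 5.57 FPKM in APP/PS1 and 5.05, 4.87 and 4.85 FPKM in WT, with small spread in both labels. These values would also overlap with the labels of APP/PS1 replicate 2 and WT replicate 3 exchanged. The log2 fold change was 0.16 (95% interval 0.02 to 0.29, adjusted p = 0.715 by limma, unadjusted p = 0.0326 by limma).

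The remaining subunits of the writer complex were close to level. Zc3h13, the most abundant of them, averaged 17.0 ± 0.803 FPKM in APP/PS1 and 17.4 ± 0.659 FPKM in WT, and Rbm15b, an RNA-binding subunit, 10.7 ± 0.0812 and 11.3 ± 0.559 FPKM (SD, n = 3 each). Their log2 fold changes were -0.03 and -0.08, and those of Virma and Rbm15 were -0.06 and -0.04. None of these passed by limma. Rbm15 was at 0.0021 in the 4 libraries, with its sign turned, and Rbm15b at -0.12.

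Of the methyltransferases that act outside this complex, Trmt112, the activator of METTL5, had 5.51, 5.14 and 5.44 FPKM in APP/PS1 and 4.92, 7.74 and 7.71 FPKM in WT. WT replicate 1 lay below all APP/PS1 libraries and the other WT libraries above them, with a log2 fold change of -0.27 (adjusted p = 0.824 by limma). Trmt112 was at -0.15 in the 4 libraries, and ran from -0.46 to -0.15 over the alternatives. Mettl5 itself, the ribosomal RNA m6A enzyme, averaged 1.99 ± 0.385 FPKM in APP/PS1 and 2.43 ± 0.327 FPKM in WT (SD, n = 3 each), with a log2 fold change of -0.20 (adjusted p = 0.832 by limma). Trmt112 overlaps Prdx5 and Esrra, and Mettl5 overlaps Ssb, in RefSeq. Pcif1, which methylates the cap-adjacent base, had the highest mean of this group over the 6 libraries, at 6.8 ± 0.233 FPKM in APP/PS1 and 6.73 ± 0.105 FPKM in WT (SD, n = 3 each). Mat2a, which makes the methyl donor S-adenosylmethionine and carries a hairpin read by METTL16, had 15.7, 28.5 and 24.7 FPKM in APP/PS1 and 19.3, 17.3 and 20.1 FPKM in WT. The APP/PS1 libraries included both the lowest and the highest value, and the log2 fold change was 0.23 (95% interval -0.27 to 0.73, adjusted p = 0.899 by limma). Mat2a was at 0.11 in the 4 libraries, and ran from 0.06 to 0.47 over the alternatives.

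Among other readers, Prrc2a was the most abundant at 69.7 ± 2.73 FPKM in APP/PS1 and 71.8 ± 2.11 FPKM in WT (SD, n = 3 each). Hnrnpc, which encodes an RNA-binding protein whose RNA sites m6A makes accessible to it, averaged 23.1 ± 1.19 and 24.5 ± 1.51 FPKM (SD, n = 3 each). Fxr2, a paralog of the fragile X protein, averaged 23.9 ± 0.745 FPKM in APP/PS1 and 24.9 ± 0.424 FPKM in WT. Of the effectors, the splicing factors that partner YTHDC1 gave 16.9 ± 0.561 against 16.9 ± 1.91 FPKM for Srsf3 and 6.24 ± 0.26 against 5.78 ± 0.341 FPKM for Srsf10, APP/PS1 before WT. The log2 fold changes of these 5 genes lay between -0.08 and 0.09. Srsf3 was at 0.11 in the 4 libraries and at 0.0025 in all 6, and Srsf10 and Prrc2a were at 0.14 and -0.09 in the 4. Signs also turned in the 4 libraries for Fxr1 (-0.03 to 0.02), Cnot1 (-0.01 to 0.01) and Mat2b (0.03 to -0.0057). Fmr1 moved from 0.03 in all 6 libraries to 0.16 in the 4.

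**Figure D4:**
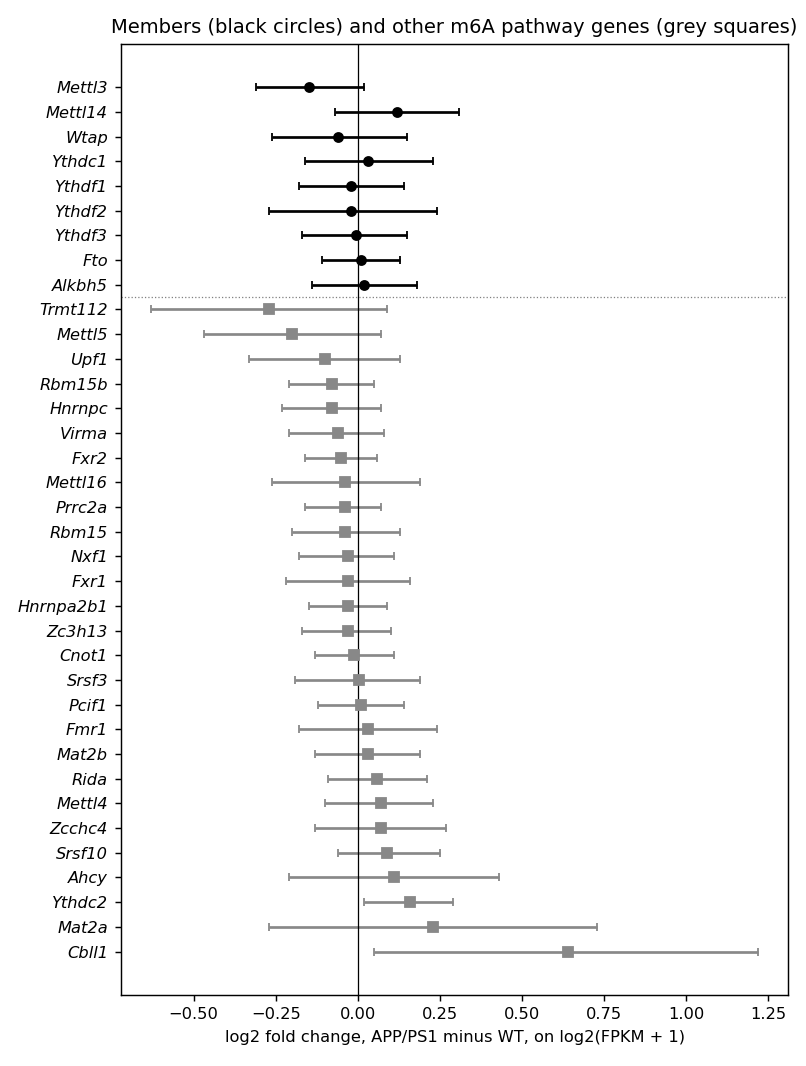
Log2 fold change, APP/PS1 minus WT, on the log2(FPKM + 1) scale with its 95% limma interval, for the 9 members (black circles) and 27 other m6A pathway genes (grey squares, sorted). All member intervals include 0, and the intervals of Cbll1 (0.05 to 1.22) and Ythdc2 (0.02 to 0.29) lie above it without adjustment.

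The genes whose levels over the 6 libraries were most like those of each member were named by the highest Pearson r among 11848 genes with a symbol, as a description, since the points share a library and a label. For Mettl3 this was Shisa7, an auxiliary subunit of GABA-A receptors (r = 0.991), at 14.5, 17.1 and 16.5 FPKM in APP/PS1 and 17.6, 19.4 and 20.4 FPKM in WT. For Mettl14 it was the cathepsin gene Ctsh (r = 0.996). For the readers it was Edem3 with Ythdc1 (r = 0.995), Idi1 with Ythdf1 (r = 0.995), Usp38 with Ythdf2 (r = 0.995) and Cbx5 with Ythdf3 (r = 0.994). Nadk2 was nearest to Wtap (r = 0.991), Lrch4 to Fto (r = 0.99) and Mob3c to Alkbh5 (r = 0.993). Pearson r compares the pattern over libraries and not the size of the changes. Lrch4 ran from 0.627 to 3.9 FPKM where Fto ran from 11.1 to 11.8 FPKM. Nadk2 ran from 4.07 to 9.84 FPKM where Wtap ran from 5.66 to 7.15 FPKM. With 6 points such values are common: between 56 and 238 genes had an r over 0.9 with a given member.

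Marker genes of hippocampal cell types were summed per library beside these values. The 6 neuron markers summed to between 485 and 537 FPKM in APP/PS1 and between 457 and 519 FPKM in WT, and the 6 oligodendrocyte markers to between 352 and 426 FPKM in APP/PS1 and between 291 and 374 FPKM in WT. Astrocyte, microglia, endothelial, choroid plexus and oligodendrocyte precursor sums overlapped too, and no marker of these lists was at 0 in any library. The sum over 8 immediate early genes, which neuronal activity induces, did not overlap: it was 184, 256 and 157 FPKM in APP/PS1 and 417, 354 and 303 FPKM in WT. With the labels of APP/PS1 replicate 2 and WT replicate 3 exchanged, the labels would overlap in this sum too. Of the 8 genes, 0 passed by limma after adjustment. The oligodendrocyte and astrocyte sums, which overlap by the labels as given, would lie apart after the same exchange, both higher in APP/PS1. Astrocyte sums were 461, 428 and 468 FPKM in APP/PS1 and 415, 452 and 467 FPKM in WT. By the labels as given, the immediate early sum, Mettl3 and the ratio of Mettl3 to Mettl14 were all lower in APP/PS1. The part of neuronal activity or cell makeup in the Mettl3 values was not tested.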

How the data were processed

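Gene values deposited by the authors were read as FPKM, a unit inferred from the decimals, from totals far below those of TPM and from StringTie. The submitters' processing notes name StringTie, HISAT2, FastQC and mm9 without versions or roles. The circRNA tables hold whole-number read counts deposited by the authors. No library repeated the values of another.

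limma 3.58.1 (R 4.3.3, trend and robust empirical Bayes) was fitted by label on log2(FPKM + 1) to the 13700 genes that reached 1 FPKM in 3 or more libraries, all 9 members among them, with Benjamini-Hochberg adjustment over all of them at 0.05. Ratios were compared by exact permutation over libraries. The fit was tested on simulated data. Alternatives were other pseudocounts, filters, scalings and limma settings, a replicate block, single libraries left out, and the 4 libraries whose App and Prnp follow the labels. Members, lists and alternatives were chosen with earlier results of these data known. Of the other pathway genes, up to 8 by smallest p and the most abundant of each role are named. Virma, Rbm15, Fmr1, Fxr1, Cnot1 and Mat2b were added after their values were seen.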

Additional observations from a re-analysis of the deposited data

How the results depend on the processing

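Under 17 alternatives 0 members and 0 other pathway genes passed in either direction, and the Mettl3 and Mettl14 log2 fold changes kept their signs (-0.20 to -0.11 and 0.08 to 0.18). The other filters, the threshold of 0.1, limma without trend and robust and the replicate block leave a log2 fold change as it is. Only the remaining alternatives could turn a sign. An exchange of the labels of APP/PS1 replicate 2 and WT replicate 3 was not among the alternatives. Without a single library, Ythdc1 reached -0.0089 and 0.11, Ythdf1 -0.07 and 0.04, Ythdf2 -0.12 and 0.1, Ythdf3 -0.04 and 0.06, Alkbh5 -0.02 and 0.08, Fto -0.0064 and 0.02 and Wtap -0.11 and 0.03 as the lowest and highest log2 fold change, signs of both kinds. In the 4 libraries signs turned for Ythdf1 (0.04), Ythdf2 (0.07), Ythdf3 (0.07), Alkbh5 (-0.01), Fto (-0.02) and Wtap (0.06). With array weights they turned for Ythdf1 (0.01), Ythdf2 (0.05) and Ythdf3 (0.03), for Ythdf3 also with quantile normalization (0.0054) or after rescaling without mitochondrially encoded genes (0.0018), and for Fto after scaling to equal sums (-0.0011). For these small values the cause was not tested. Leaving out single libraries gave log2 ratio differences from -0.07 to 0.03 for Fto to Alkbh5 and from -0.04 to 0.08 for Ythdf3 to Ythdf2.

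Over all genes the count of higher calls, 1, became 2 with array weights, 3 at a threshold of 0.1 and 11 in the 4 libraries, and ran from 1 to 8 without single libraries. The count of lower calls, 2, became 4 at a threshold of 0.1, 0 with the replicate block and 16 in the 4 libraries, and ran from 1 to 22 without single libraries. Replicate numbers are shared between labels, and deviations of same-numbered libraries correlated at 0.01, -0.06 and -0.09. Taken over all genes tested, these correlations cannot exclude a pairing that affects few genes. With the replicate block Mettl3 had an adjusted p = 0.901 by limma, and the Mettl3 to Mettl14 ratio an exact sign-flip p = 0.25, the smallest that 3 pairs allow. Tests of circRNAs of members were not run, since none of the 257 circles with coordinates overlapped a member and the others were not paired with genes. Depth behind FPKM is unknown and 3 libraries per label limit what can be called.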

Other observations

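The circRNA tables listed 2246 circles, of which 257 had coordinates. Of these, 254 (98.8%) lay inside a gene of the RefSeq table of GRCm38, although mm9 is listed, and after a shift of 1000000 bases 31.5% did. None of the 257 overlapped any of the 9 members or any of the 27 other pathway genes by that table (0 and 0). Circles known by a database number were not paired with genes here.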
